A study of Mus musculus with 6 samples.

Results

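Kinesins, centromere proteins and regulators of the mitotic spindle were examined in mouse macrophages exposed to tumour vesicles. The genes were chosen by name: every symbol beginning with Kif and a digit, every symbol beginning with Cenp and a letter, and 13 named spindle regulators. This gave 72 genes of the 26835 with values, namely 38 kinesin symbols, 21 centromere protein symbols and the 13 regulators. Bone marrow-derived macrophages were given K7M2-EVs (10 µg) for 24 h, which made 3 libraries. K7M2-EVs are extracellular vesicles of K7M2, a mouse osteosarcoma cell line. They were set against macrophages given PBS for 24 h, also 3 libraries. All cells were wild type (WT in the labels), came from BALB/c mice aged 5 to 8 weeks, and had been grown out of marrow for 6 days in 10% serum with M-CSF at 25 ng/ml. M-CSF is both the survival factor and the mitogen of such cultures, and it was given to both groups. The submitters call the 3 libraries of a group biological replicates and independent experiments. The sources used here do not say whether marrow of several animals was pooled.

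Kinesins are motor proteins that use ATP to move along microtubules. Mitotic kinesins push spindle poles apart, move chromosomes or separate the daughter cells, and their genes are switched on as cells approach mitosis. Transport kinesins carry organelles, vesicles and RNA towards the cell periphery and are used by cells that do not divide. Centromere proteins build the kinetochore, the platform on each chromosome to which spindle microtubules attach, and kinases such as Aurora B, BUB1 and TTK check that attachment. Many genes of the G2 and M phases share promoter elements, among them the cell cycle genes homology region (CHR), with the core letters TTTGAA, and CCAAT boxes bound by NF-Y. Macrophages grown in M-CSF keep dividing to a limited extent, and inflammatory stimuli are known to stop that division.

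The promoters of the 2 kinesin classes differed in these letters. RefSeq windows of GRCm38.p6, from 250 bases before to 50 after the annotated start, were at hand for 62 of the 72 genes. TTTGAA, on either strand, was found in 9 of 10 mitotic kinesin windows and 0 of 10 transport kinesin windows. It was found in 9 of 11 spindle regulator windows, 4 of 16 windows of inner kinetochore genes and 1 of the 2 of the outer corona genes Cenpe and Cenpf. Of the 8054 genes tested for expression that had a window, 11.96% held TTTGAA, and of all 27025 genes with a window 18.1% did. CCAAT, on either strand, was found in 6 of 10 mitotic kinesin, 3 of 10 transport kinesin, 11 of 11 regulator and 12 of 16 inner kinetochore windows, against 39.1% of the tested genes. Letters of the 2 motifs overlapped in 1 of the 62 windows. Base composition was not matched. A match is a run of letters and not evidence of a bound factor.

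The following stretches of 100 bases end at the base just before the start. They are shown because the mitotic kinesins and regulators among them hold TTTGAA within 30 bases of the start, as do 57.1% of the 21 mitotic kinesin and regulator windows and 2.00% of tested genes when both sides of the start are counted. That distance was chosen after the positions were seen. Capitals mark TTTGAA or CCAAT and their reverse complements TTCAAA and ATTGG. The last 3 stretches are the transport kinesins with the highest FPKM that have a window. Sequences are from RefSeq, build GRCm38.p6, printed 5′ to 3′ on the strand of the gene.
Kif11, chr19:37376282-37376381, plus strand: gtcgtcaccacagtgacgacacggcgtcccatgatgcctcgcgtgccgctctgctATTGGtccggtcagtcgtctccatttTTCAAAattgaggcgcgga
Kif22, chr7:127042421-127042520, minus strand: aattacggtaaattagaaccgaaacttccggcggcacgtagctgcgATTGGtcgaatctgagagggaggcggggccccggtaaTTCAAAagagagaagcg
Kif15, chr9:122950981-122951080, plus strand: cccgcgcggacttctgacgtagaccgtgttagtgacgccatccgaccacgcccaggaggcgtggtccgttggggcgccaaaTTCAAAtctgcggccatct
Top2a, chr11:99024190-99024289, minus strand: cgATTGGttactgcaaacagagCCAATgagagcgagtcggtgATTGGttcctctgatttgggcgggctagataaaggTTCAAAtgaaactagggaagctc
Cdc20, chr4:118437344-118437443, minus strand: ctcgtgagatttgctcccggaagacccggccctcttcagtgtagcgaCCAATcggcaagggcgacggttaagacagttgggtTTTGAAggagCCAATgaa
Cdk1, chr10:69352913-69353012, minus strand: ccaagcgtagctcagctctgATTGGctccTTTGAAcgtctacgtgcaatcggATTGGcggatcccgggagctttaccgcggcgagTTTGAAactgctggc
Kif1c, chr11:70700448-70700547, plus strand: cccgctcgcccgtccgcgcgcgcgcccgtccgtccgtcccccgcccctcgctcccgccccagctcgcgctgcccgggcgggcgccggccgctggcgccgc
Kif3b, chr2:153291316-153291415, plus strand: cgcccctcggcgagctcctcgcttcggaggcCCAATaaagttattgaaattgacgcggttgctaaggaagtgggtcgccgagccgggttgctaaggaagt
Kif1b, chr4:149307734-149307833, minus strand: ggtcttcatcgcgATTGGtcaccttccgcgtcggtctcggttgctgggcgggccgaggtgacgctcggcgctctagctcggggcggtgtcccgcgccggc
In Kif11, Kif22, Kif15, Top2a, Cdc20 and Cdk1 the TTTGAA copy nearest the start begins 19, 17, 19, 23, 18 and 15 bases before it. Kif11, Kif22, Top2a, Cdc20 and Cdk1 carry a CCAAT letter run further upstream, and Kif15 has none in its window. Cdc20 holds another CCAAT run closer to the start, 8 bases before it.

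Expression was given as FPKM, fragments scaled for exon length and sequencing depth, in 6 libraries. The spacing of low values implied totals of 22188280 to 24091010 reads in K7M2-EV libraries and 21340660 to 25697300 reads in PBS libraries. A gene of 2 kb at 1 FPKM then rests on 42.7 to 51.4 reads, with counting errors up to 15.3%. All 10 macrophage markers were above 1 FPKM in every library. Their sum, mostly Lyz2 and Adgre1, was 13719 to 15227 FPKM in K7M2-EV libraries and 5463 to 6737 FPKM in PBS libraries. Of the 10, 6 were called higher and 3 lower, namely Cd68 at 49.2%, Laptm5 at 59.9% and Ctss at 71.0% of the PBS mean. The 3 lymphocyte markers with values summed to at most 0.0670 FPKM in K7M2-EV libraries and 0.126 FPKM in PBS libraries, and the 4 erythroid markers to at most 0.382 and 0.556 FPKM. The 4 progenitor markers summed to 0.0816, 0.0234 and 0.0491 FPKM in K7M2-EV libraries and 0.796, 0.576 and 1.08 FPKM in PBS libraries, without overlap and in the same direction as the division genes. Nearly all of the PBS sum was Cd34, at 0.0228 FPKM with K7M2-EVs and 0.757 FPKM with PBS, which was below the filter and called lower without it (limma adjusted p = 0.00611). Kit, Flt3 and Prtn3 did not exceed 0.0950 FPKM in any library. Kit and Flt3 had higher means with K7M2-EVs and Prtn3 a lower one. The part of the progenitor markers in the results was not tested. The 9 neutrophil markers with values summed to 54.7 to 68.9 FPKM in K7M2-EV libraries and 5.77 to 7.48 FPKM in PBS libraries, mostly S100a8 and Mmp8. These 2 and Camp, which had passed the filter through K7M2-EV libraries only, were called higher, and S100a9 was not called. Below the filter, Cxcr2 was lower in the fit without one (limma adjusted p = 0.00652), while Ly6g, Mpo, Ngp and Ltf were not called there. Ly6g was listed at 0 in every K7M2-EV library and in PBS replicates 2 and 3. The part of the neutrophil markers in the results was not tested. The library of replicate 2 stood apart in both groups. Its 17 mesenchymal markers summed to 903 FPKM with K7M2-EVs and 692 FPKM with PBS, against 337 and 356 FPKM in the other K7M2-EV libraries and 287 and 332 FPKM in the other PBS libraries. The markers Col1a1, Acta2, Sparc, Col1a2 and Tagln were abundant in that list. The means of Col1a1, Sparc and Col1a2 were higher with K7M2-EVs. Those of Acta2 (109 against 143 FPKM with PBS) and Tagln (23.2 against 43.3 FPKM) were lower. Without a block, none of Col1a1, Acta2, Sparc, Col1a2 and Tagln was called. With the replicate number as a block, Col1a1, Col1a2 and Sparc were called higher (limma adjusted p at most 0.0194). Acta2 and Tagln were called lower in that fit (limma adjusted p at most 0.00344). Of the mesenchymal list only Runx2 was called without a block. It was lower and had passed the filter through PBS libraries only. Sp7, Alpl, Bglap and Lum averaged at most 0.327 FPKM with K7M2-EVs and 0.312 FPKM with PBS. In bulk RNA, fewer cells of a kind and less RNA per cell cannot be told apart. Genes were called by limma where the p-value, adjusted by Benjamini and Hochberg's method, was under 0.05. The adjustment ran over the 13009 genes that reached 1 FPKM in 3 or more libraries. Changes are differences of log2(FPKM + 1), so those of genes at low levels are understated. Across all these genes 35.6% were called lower and 18.4% higher with K7M2-EVs, 54.0% in all, and the median change was -0.12. The split depended on scaling: 4631 genes were lower and 2395 higher as deposited, 3376 lower and 3445 higher after median-of-ratios scaling, and 3282 lower and 3135 higher after quantile normalization. With the replicate number as a block the shares were 36.8% lower and 19.2% higher, 56.0% in all. Of the 72 genes, 52 passed the filter, 11 of them through PBS libraries only, and 41 were called lower and 3 higher. With no filter 50 of 72 were lower and 3 higher, against 20.8% lower and 9.31% higher, 30.1% in all, of the 26835 genes.

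Mitotic kinesin genes were low in macrophages that had received K7M2-EVs. Summed over the 11 genes, their level was 7.62, 15.1 and 7.48 FPKM in K7M2-EV libraries, against 41.3, 66.8 and 54.9 FPKM in PBS libraries. The sum in a K7M2-EV library was thus 18.4%, 22.7% and 13.6% of that in the PBS library of the same number. All 3 K7M2-EV sums lay below all 3 PBS sums, and replicate 2 was the highest of its group in both. For each of the 11 genes the groups did not overlap, where 42.0% of tested genes, and 31.3% of genes with no filter, were lower without overlap. Of the 11, 10 passed the filter and all 10 were called lower. Because 4 of those 10, namely Kif23, Kif22, Kif15 and Kif14, passed through their PBS libraries only, they had to differ. With no filter 11 of 11 were lower, against 20.8% of 26835 genes.

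**Figure D1:**
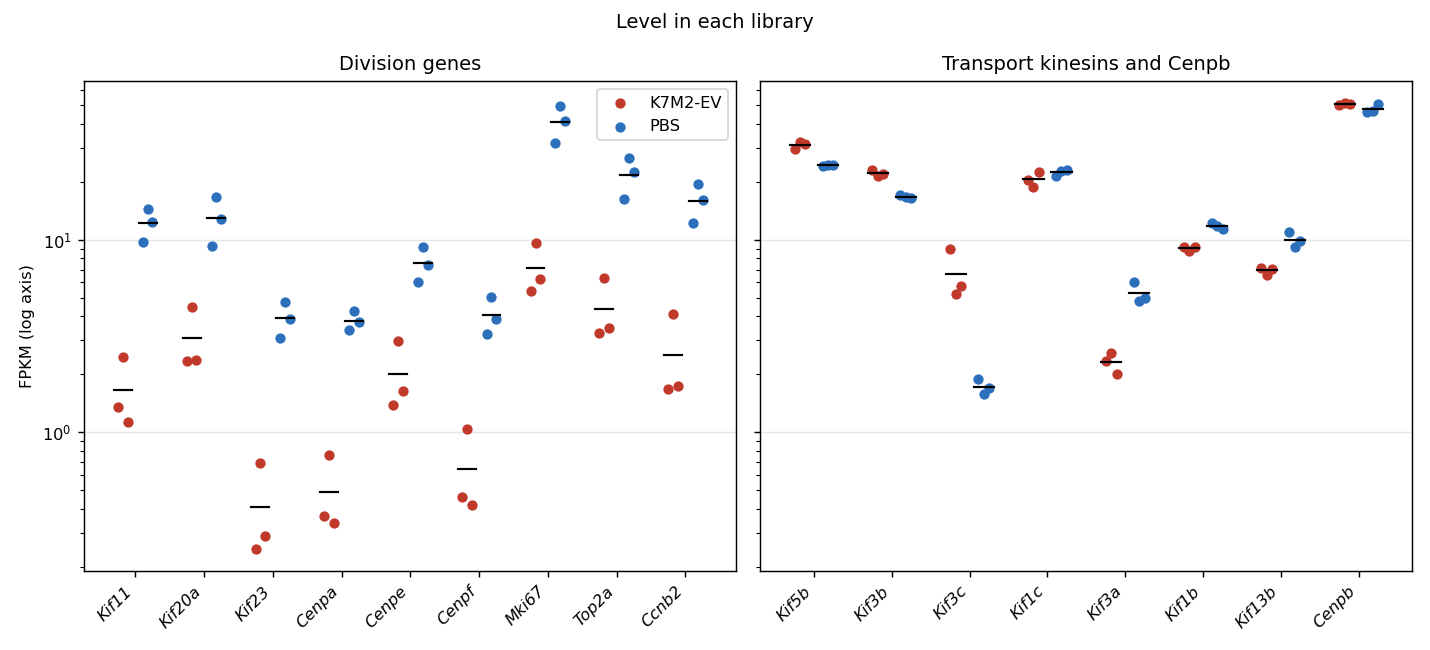
Level of 17 genes in each library, in FPKM on a log axis. Each point is 1 library and each bar the mean of 3, with K7M2-EV libraries in red and PBS libraries in blue. The 9 division genes on the left have no overlap between groups, and the right panel holds 7 transport kinesins and Cenpb, with Kif5b, Kif3b and Kif3c higher with K7M2-EVs.

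Kif11, the plus-end motor that slides antiparallel microtubules to make the spindle bipolar, had 1.36, 2.47 and 1.14 FPKM with K7M2-EVs and 9.76, 14.4 and 12.4 FPKM with PBS. The highest K7M2-EV library, replicate 2, was still well below the lowest PBS library. The change was -2.33 ± 0.21 (log2 scale, SE, limma adjusted p = 0.000207), the largest fall among the kinesins. Kif11 lies on chromosome 19 at 37376403 to 37421859 of GRCm38, on the plus strand.

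Kif20a and Kif23 act in cytokinesis, at the central spindle between the separating chromosomes. Kif20a had 2.34, 4.50 and 2.39 FPKM with K7M2-EVs, against 9.25, 16.7 and 12.8 FPKM with PBS. Its change was -1.78 ± 0.26 (limma adjusted p = 0.0017). Cdc23, on the other strand, shares 29.3% of the exon bases of Kif20a. Cdc23 was at 2.63 FPKM with K7M2-EVs and 3.34 FPKM with PBS and was called lower too (change -0.25, limma adjusted p = 0.0131). Kif23 had 0.249, 0.695 and 0.291 FPKM with K7M2-EVs and 3.10, 4.73 and 3.89 FPKM with PBS. At 10.5% of the PBS mean it had the smallest remaining share of the mitotic kinesins, on a change of -1.80 ± 0.17 (limma adjusted p = 0.000221). Kif23 had passed the filter through PBS libraries only.

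Kif4, a chromosome-bound motor that organizes chromosomes and the central spindle, had 0.791, 1.78 and 0.704 FPKM with K7M2-EVs and 4.08, 6.79 and 5.31 FPKM with PBS. Kif18b, a motor that shortens astral microtubules, had 0.594, 1.07 and 0.560 FPKM with K7M2-EVs and 3.35, 5.97 and 5.19 FPKM with PBS. Kif20b, another motor of cytokinesis, had 0.664, 1.27 and 0.696 FPKM with K7M2-EVs and 2.99, 4.61 and 3.97 FPKM with PBS. In these genes the same library, replicate 2, was highest within each group and the groups stayed apart. Their changes were -1.63, -1.73 and -1.37 on the log2 scale (limma adjusted p = 0.00145, 0.000572 and 0.000784).

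The other mitotic kinesins fell too. Kif22, which pushes chromosome arms away from the poles, was at 19.8% of its PBS mean, and Kif2c, a microtubule depolymerase that corrects wrong attachments, at 22.8%. Kif15, a motor that backs up Kif11, was at 15.7%, and Kif14, a motor of cytokinesis, at 20.07%. Their changes ran from -1.40 to -0.93 on the log2 scale. Kif18a, which dampens chromosome oscillation, was below the filter at 0.115, 0.258 and 0.143 FPKM with K7M2-EVs and 0.655, 1.01 and 0.786 FPKM with PBS. In the fit without a filter it was lower by 0.63 (limma adjusted p = 0.00433). Over the 11 genes the remaining share was 10.5% to 23.8% of the PBS mean, a narrow range for genes whose PBS means ran from 0.818 to 12.9 FPKM. Without both libraries of replicate 2, with the same genes tested, all 10 mitotic kinesins remained called lower and their median change was -1.57, against -1.52 with all libraries.

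**Figure D2:**
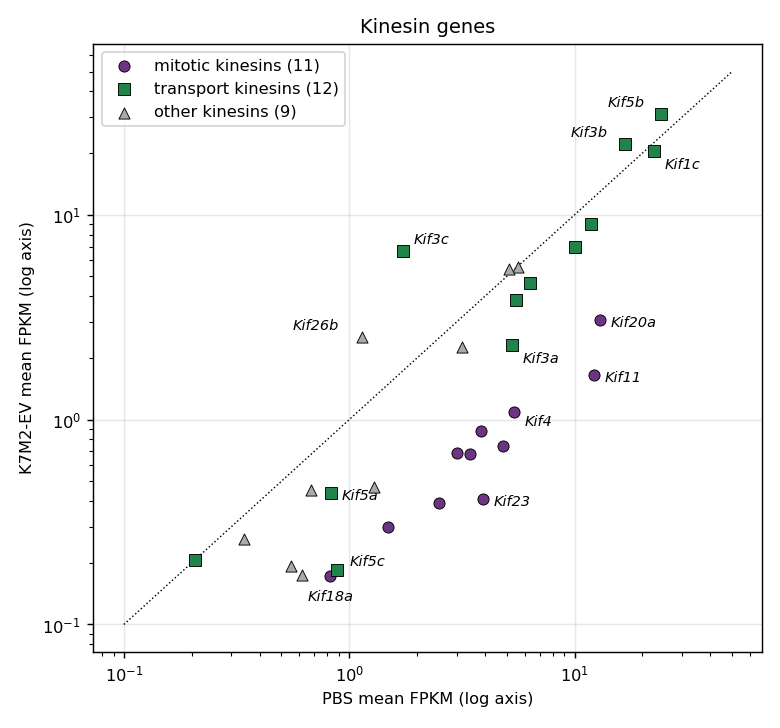
Mean FPKM of kinesin genes with K7M2-EVs (vertical, log axis) against PBS (horizontal, log axis). The 32 of 38 genes with at least 0.1 FPKM in both groups are shown, and the dotted line marks equal levels. All 11 mitotic kinesins lie below the line, while transport kinesins lie on both sides, with Kif3c farthest above it.

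Transport kinesins kept their summed level. The 13 genes summed to 110, 105 and 109 FPKM in K7M2-EV libraries, against 108, 105 and 105 FPKM in PBS libraries, and the groups overlapped. The K7M2-EV sum was 101.7%, 100.3% and 103.8% of that in the PBS library of the same number. Within that sum single genes moved in both directions. Kif5b, Kif1c and Kif3b had the highest mean levels in it. Of 9 that passed the filter, all through both groups, 3 were called higher, 5 lower and 1 was not called, with a median change of -0.35. Among all tested genes 18.4% were called higher and 35.6% lower, with a median change of -0.12. The mitotic and transport lists were compared by these values only, with no test between lists.

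Kif5b, Kif3b and Kif3c rose. They were also the 3 of the 72 genes that were higher without overlap, as were 21.8% of tested genes and 13.4% of genes with no filter. Kif5b, the widely expressed conventional kinesin heavy chain, had 29.7, 32.3 and 31.4 FPKM with K7M2-EVs and 24.2, 24.3 and 24.3 FPKM with PBS. It was the most abundant kinesin with K7M2-EVs, at 128% of its PBS mean (change 0.34 ± 0.05, limma adjusted p = 0.00165). Kif3b, a motor subunit of heterotrimeric kinesin-2, had 22.9, 21.5 and 21.98 FPKM with K7M2-EVs and 16.97, 16.7 and 16.4 FPKM with PBS. Its groups did not overlap and its change was 0.39 ± 0.05 (limma adjusted p = 0.000742). Kif3c, an alternative partner of KIF3A studied mostly in neurons, had 8.90, 5.23 and 5.76 FPKM with K7M2-EVs and 1.90, 1.58 and 1.70 FPKM with PBS. At 384% of the PBS mean it showed the largest rise among the 52 genes that passed the filter (change 1.46 ± 0.17, limma adjusted p = 0.000664). Exons of Kif3c share 40.7% of their bases with genes on the other strand, of which 1110002L01Rik was at 2.06 FPKM with K7M2-EVs and 1.66 FPKM with PBS and was not called (limma adjusted p = 0.0678). The other, Gm48512, was below the filter and moved with Kif3c, at 1.06 FPKM with K7M2-EVs and 0.373 FPKM with PBS. The sources used here give no strand setting of the counting, so reads in the shared bases cannot be assigned with certainty.

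Kif3a, the common subunit that pairs with either KIF3B or KIF3C, went the other way. It had 2.36, 2.59 and 2.01 FPKM with K7M2-EVs and 6.02, 4.82 and 4.99 FPKM with PBS. The groups were well apart, at 44.0% of the PBS mean (change -0.92 ± 0.10, limma adjusted p = 0.00046). Kifap3, which encodes the kinesin-2 cargo adaptor and is no Kif symbol with a digit, was also lower, at 4.91 ± 0.277 FPKM with K7M2-EVs and 9.67 ± 0.119 FPKM with PBS (SD, n = 3 each). The genes of kinesin-2 thus changed in opposite directions, with Kif3b and Kif3c higher and Kif3a and Kifap3 lower.

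Kif1b and Kif1c belong to the kinesin-3 family, which moves vesicles and mitochondria. Kif1c had 20.4, 18.9 and 22.5 FPKM with K7M2-EVs and 21.5, 22.8 and 23.0 FPKM with PBS, overlapped between groups and was not called (limma adjusted p = 0.2). Kif1b had 9.21, 8.77 and 9.12 FPKM with K7M2-EVs and 12.2, 11.8 and 11.4 FPKM with PBS, without overlap (change -0.35 ± 0.05, limma adjusted p = 0.0013). Kif13b, a kinesin-3 motor of endocytic and signalling cargo, had 7.16, 6.55 and 7.09 FPKM with K7M2-EVs and 11, 9.19 and 9.82 FPKM with PBS. Its change was -0.47 ± 0.07 (limma adjusted p = 0.00216). Kif13a and Kif16b, motors of endosomes, fell by 0.43 and 0.38 on the log2 scale. The kinesin-3 genes of the transport list that were called lower, Kif1b, Kif13a, Kif13b and Kif16b, kept 69.3% to 76.6% of their PBS means.

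Kif5a and Kif5c, conventional kinesins best known from neurons, were below the filter. Kif5c had 0.145, 0.237 and 0.171 FPKM with K7M2-EVs and 0.915, 0.826 and 0.900 FPKM with PBS. Its share of 20.9% of the PBS mean was as low as that of the mitotic kinesins, and it was lower in the fit without a filter (change -0.67, limma adjusted p = 0.000558). Kif5a was at 53.3% of its PBS mean and was lower in the same fit (limma adjusted p = 0.0105). Kif1a was at 0.207 FPKM in both groups, and Kif17 was listed at 0 in all K7M2-EV libraries and 1 PBS library.

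Among the 14 remaining Kif symbols 5 passed the filter. Kif21b, which regulates microtubule growth, had 5.56, 5.48 and 5.58 FPKM with K7M2-EVs and 6.08, 4.79 and 5.91 FPKM with PBS. Kif2a, a microtubule depolymerase used in both dividing and resting cells, had 5.29, 5.62 and 5.38 FPKM with K7M2-EVs and 4.88, 5.78 and 4.64 FPKM with PBS. Both overlapped between groups and neither was called (limma adjusted p = 0.957 and 0.422).

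Kif24, a depolymerase of centrioles that restrains the primary cilium, was lower, at 36.2% of its PBS mean (change -0.64, limma adjusted p = 0.00161). Kif24 had passed the filter through PBS libraries only, so it had to differ. Kif1bp, which is a kinesin-binding protein and no motor, had 2.22, 2.38 and 2.21 FPKM with K7M2-EVs and 3.19, 2.90 and 3.43 FPKM with PBS. It was called lower (change -0.35 ± 0.07, limma adjusted p = 0.00551), but lost the call when replicate 1 (adjusted p = 0.0622) or replicate 3 (adjusted p = 0.0813) was left out in both groups, and after quantile normalization (adjusted p = 0.0983).

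Kif26b, an atypical kinesin without ATPase activity that is known from developing mesenchyme, had 1.61, 4.402 and 1.59 FPKM with K7M2-EVs and 0.753, 1.72 and 0.936 FPKM with PBS. Replicate 2 was the highest of both groups, as it was for the mesenchymal markers, and their part in the result was not tested. The change of 0.66 ± 0.32 was not called (limma adjusted p = 0.128), but with the replicate number as a block it was (adjusted p = 0.0115), and likewise without both libraries of replicate 2 with the same genes tested (change 0.50, adjusted p = 0.0102). Kif21a had 0.0705, 0.508 and 0.205 FPKM with K7M2-EVs and 0.190, 0.623 and 0.216 FPKM with PBS, again highest in replicate 2. Kif9 and Kif19a, both motors of motile cilia, were below the filter and lower in the fit without one, at 28.3% and 34.7% of their PBS means. Kif7, the Hedgehog pathway kinesin, stayed below 1 FPKM in every library and was not called there. Kif6, Kif12, Kif26a, Kif27 and Kif28 did not exceed 0.0986 FPKM in any library.

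**Figure D3:**
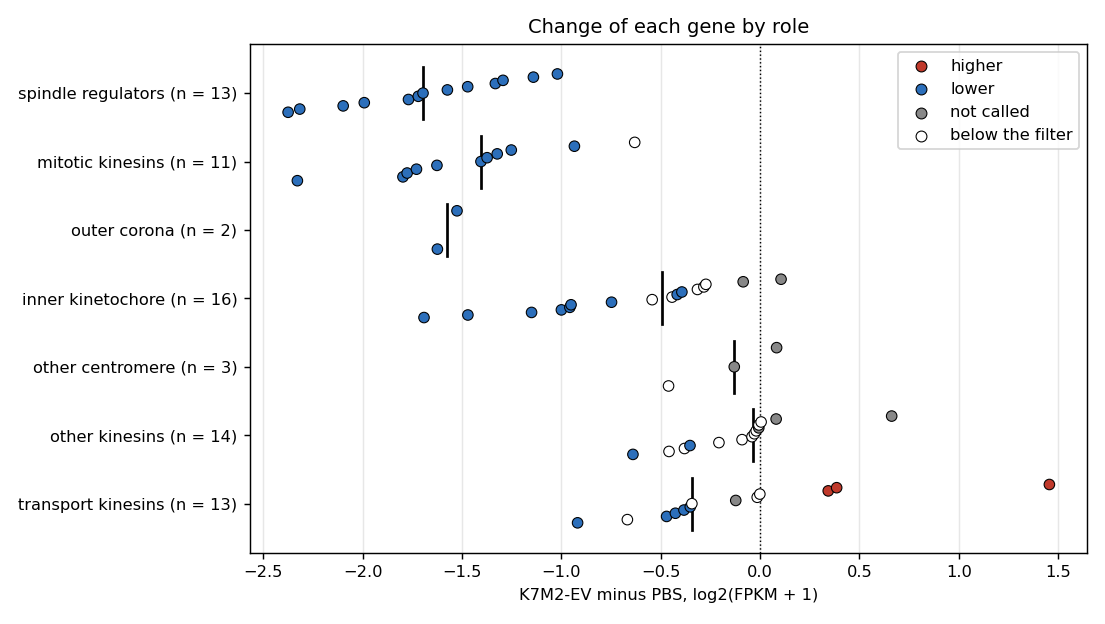
Change of each of the 72 genes by role, as K7M2-EV minus PBS on the log2(FPKM + 1) scale. Red points were called higher, blue lower, grey not called, and white points were below the filter; black bars are medians over all members of a role. Spindle regulators have a median of -1.70 and mitotic kinesins of -1.40, while the transport kinesins lie on both sides of 0 with a median of -0.34.

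The remaining shares of the 21 centromere protein genes ran from 12.97% to 112.0% of the PBS mean, with intermediate values between. CENP-A is the histone H3 variant that marks the centromere. Cenpa had 0.368, 0.767 and 0.338 FPKM with K7M2-EVs and 3.40, 4.25 and 3.72 FPKM with PBS. The lowest PBS library was above the highest K7M2-EV library, and 12.97% of the PBS mean remained (change -1.69 ± 0.13, limma adjusted p = 0.000101). Of the 16 inner kinetochore genes, 11 passed the filter. Of these, 4, namely Cenpa, Cenpi, Cenpn and Cenpp, passed through PBS libraries only and had to differ. Of the 11, 9 were called lower and 0 higher, against 35.6% lower and 18.4% higher among all tested genes. In the fit without a filter 12 of 16 were lower, against 20.8% of the 26835 genes. Cenpa lies on chromosome 5 at 30666777 to 30674830 of GRCm38.

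Cenpm, which helps to join the CENP-H and CENP-I part of the complex, had 0.622, 1.35 and 0.796 FPKM with K7M2-EVs and 3.75, 4.96 and 4.15 FPKM with PBS (change -1.47 ± 0.16, limma adjusted p = 0.000408). Cenpc1, the gene of the CENP-C scaffold that links CENP-A chromatin to the outer kinetochore, had 3.40, 3.65 and 3.44 FPKM with K7M2-EVs and 4.63, 5.37 and 5.03 FPKM with PBS. Both were without overlap, but Cenpc1 kept 69.8% of its PBS mean and Cenpm 21.5%. Cenph, Cenpi, Cenpn, Cenpp and Cenpq, all subunits of the constitutive complex on CENP-A chromatin, kept 24.6% to 30.9%. Cenpo, a further subunit, kept 61.9%. Without both libraries of replicate 3 neither Cenph (change -1.11, limma adjusted p = 0.0598) nor Cenpo (change -0.34, adjusted p = 0.053) was called; on the genes of the full filter this held for Cenph (adjusted p = 0.055) and Cenpo was called. Cenpo was not called either after quantile normalization (adjusted p = 0.0864). Adcy3, on the other strand, overlaps Cenpo, with 22.5% of Cenpo exon bases shared with this gene and Ptrhd1. Adcy3 was at 1.39 FPKM with K7M2-EVs and 3.18 FPKM with PBS and was called lower (change -0.81, limma adjusted p = 0.00544). Ptrhd1 was not called (limma adjusted p = 0.0819).

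Cenpk, Cenpl and Cenpu were below the filter and lower in the fit without one (limma adjusted p = 0.0079, 0.0331 and 0.0462). Cenpw and Cenps, which carry histone folds like CENP-T and CENP-X, were not called in the fit without a filter (limma adjusted p = 0.0512 and 0.128). They were at 63.3% and 57.0% of their PBS means, and Cenpw did not overlap between groups while Cenps did. Cenpt, which also reaches to the outer kinetochore, had 1.46, 1.62 and 1.66 FPKM with K7M2-EVs and 1.47, 1.88 and 1.88 FPKM with PBS. Cenpx, whose product also serves the Fanconi anaemia DNA repair pathway, had 8.94, 9.07 and 5.02 FPKM with K7M2-EVs and 6.44, 6.90 and 7.22 FPKM with PBS. Both overlapped between groups and were not called (limma adjusted p = 0.435 and 0.681). For Cenpx this rested on K7M2-EV replicate 3, since without that library the change was 0.35 (limma adjusted p = 0.01).

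Cenpe and Cenpf belong to the outer corona of the kinetochore; CENP-E is itself a kinesin that carries chromosomes to the spindle equator. Cenpe had 1.40, 2.98 and 1.65 FPKM with K7M2-EVs and 6.03, 9.21 and 7.38 FPKM with PBS (change -1.52 ± 0.22, limma adjusted p = 0.00153). Cenpf had 0.464, 1.04 and 0.422 FPKM with K7M2-EVs and 3.24, 5.02 and 3.87 FPKM with PBS (change -1.62 ± 0.19, limma adjusted p = 0.000545). Both fell like the mitotic kinesins, with replicate 2 the highest of each group.

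Cenpb encodes a protein that binds a short motif of centromeric satellite DNA and derives from a transposase. It had 49.9, 51.0 and 50.7 FPKM with K7M2-EVs and 45.9, 46.8 and 50.4 FPKM with PBS, the highest mean of the 72 genes in both groups, although Mki67 was higher in PBS replicate 2. The groups overlapped and it was not called (change 0.08 ± 0.06, limma adjusted p = 0.243), although it was called higher after median-of-ratios scaling (change 0.23, adjusted p = 0.0151). Cenpj, which despite its name builds centrioles, had 2.38, 2.27 and 2.22 FPKM with K7M2-EVs and 2.56, 2.63 and 2.62 FPKM with PBS. Its libraries did not overlap, but the change of -0.13 was not called (limma adjusted p = 0.0917) and its sign turned after quantile normalization (0.05). Cenpv, needed for chromosome segregation, was below the filter at 41.7% of its PBS mean. Its libraries did not overlap, and it was lower in the fit without a filter (change -0.46, limma adjusted p = 0.0125). The 21 Cenp symbols summed to 76.2 ± 4.96 FPKM with K7M2-EVs and 101 ± 8.89 FPKM with PBS (SD, n = 3 each), a sum to which Cenpb gave the most.

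All 13 spindle regulators were called lower, against 35.6% of all tested genes. Of the 13, 2, namely Ttk and Ccnb1, had passed the filter through PBS libraries only and had to differ. The summed level of the 13 was 21.7, 43.9 and 23.1 FPKM with K7M2-EVs and 110, 178 and 144 FPKM with PBS. All 13 were highest in replicate 2 of both groups. The remaining share was 15.8% to 32.8% of the PBS mean, and the median change was -1.70.

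Mki67 encodes Ki-67, the surfactant of mitotic chromosomes that is used to stain cycling cells. It had 5.44, 9.66 and 6.23 FPKM with K7M2-EVs and 31.7, 49.3 and 41.1 FPKM with PBS. Top2a, the topoisomerase that disentangles sister chromatids, had 3.30, 6.32 and 3.50 FPKM with K7M2-EVs and 16.3, 26.4 and 22.4 FPKM with PBS. The highest K7M2-EV value was less than the lowest PBS value in both, and the changes were -2.37 ± 0.23 and -2.10 ± 0.25 (limma adjusted p = 0.000265 and 0.000666).

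The cyclins and their kinase drive entry into mitosis. Ccnb2, which encodes cyclin B2, had 1.68, 4.12 and 1.74 FPKM with K7M2-EVs and 12.3, 19.6 and 16.0 FPKM with PBS. At 15.8% of its PBS mean it kept the smallest share of the regulators (change -2.32 ± 0.29, limma adjusted p = 0.000756). Ccna2, which encodes cyclin A2 of S phase and G2, had 1.28, 3.07 and 1.304 FPKM with K7M2-EVs and 7.42, 13.4 and 10.05 FPKM with PBS. Ccnb1, which encodes cyclin B1, had 0.382, 0.953 and 0.382 FPKM with K7M2-EVs and 1.42, 2.79 and 2.38 FPKM with PBS. The 3 cyclin genes were highest in replicate 2 in each group. Cdk1, the gene of their kinase partner, kept 25.4% of its PBS mean (change -1.47 ± 0.19, limma adjusted p = 0.000899).

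Cdc20 activates the anaphase-promoting complex and is the protein that the spindle checkpoint holds back. It had 2.76, 5.77 and 2.55 FPKM with K7M2-EVs and 10.96, 18.6 and 12.1 FPKM with PBS (change -1.70 ± 0.30, limma adjusted p = 0.0033). The checkpoint kinase genes Bub1 and Ttk kept 22.7% and 20.8% of their PBS means, and Bub1b, the gene of BUBR1, kept 20.9%. Plk1, the polo-like kinase gene, had 1.12, 3.24 and 1.54 FPKM with K7M2-EVs and 6.98, 9.69 and 8.54 FPKM with PBS. Aurkb, the kinase of the chromosomal passenger complex, kept 22.8%, and Aurka, the kinase of spindle poles, kept 32.8%, the largest share of the 13. Without both libraries of replicate 3, with the same genes tested, Aurka (change -0.97, limma adjusted p = 0.0573) and Ccnb1 (change -0.88, adjusted p = 0.0862) were not called.

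**Figure D4:**
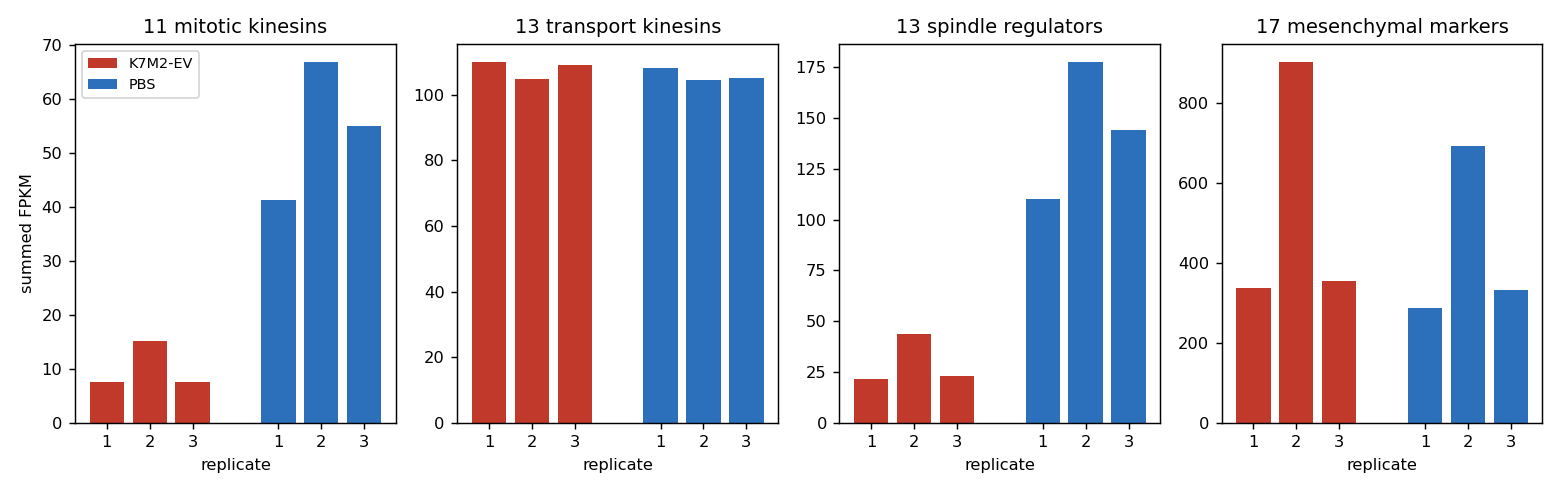
Summed FPKM in each library for 11 mitotic kinesins, 13 transport kinesins, 13 spindle regulators and 17 mesenchymal markers, with K7M2-EV libraries in red and PBS libraries in blue. Mitotic kinesins reach 7.48 to 15.1 FPKM with K7M2-EVs and 41.3 to 66.8 FPKM with PBS, transport kinesins stay between 105 and 110 FPKM, and replicate 2 is highest for all but the transport kinesins.

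Replicate 2 was the highest of its group for 52 of the 72 genes with K7M2-EVs and for 49 with PBS, where 38.6% and 41.6% of all tested genes had it so. Among the 11 mitotic kinesins and the 13 regulators it was so in every case and in both groups. The mesenchymal markers, given above, were highest there as well, and their part in these levels was not tested. The fall was present within that replicate, where the regulators had 24.7% of the PBS sum, against 19.6% in replicate 1 and 16.0% in replicate 3.

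Other genes of the same structures that match neither name pattern were counted from lists of known members. The counts below stand against 35.6% called lower among all tested genes. Of 10 outer kinetochore genes tested, 8 were lower, 5 of the 10 having passed through PBS libraries only. Ndc80, which grips microtubules, was at 1.55 FPKM with K7M2-EVs and 10.6 FPKM with PBS (change -2.18), and Spc25 and Knl1 of the same network fell by 1.56 and 1.26. Mis12, a base of that network, was at 4.98 FPKM with K7M2-EVs and 5.32 FPKM with PBS, and Zwint, which docks checkpoint proteins, was at 10.6 and 11.1 FPKM, and neither was called (limma adjusted p = 0.579 and 0.671). All 3 passenger complex genes beside Aurkb were lower, with Birc5, the survivin gene, changed by -1.86. All 4 genes that load CENP-A were lower, 2 of them having passed through PBS libraries only, with changes from -1.22 for Oip5 to -0.73 for Hjurp.

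Of 10 checkpoint and cohesin-guarding genes tested, 7 were called lower, against 35.6% of all tested genes. Of these 7, Sgo1, Sgo2a and Pttg1 had passed the filter through PBS libraries only and had to differ, and 4 of the 7 genes that passed through both groups were lower. Kntc1, Espl1 and Sgo2a had changes of -1.55, -1.33 and -1.32, while Bub3, Mad1l1 and Zw10 were not called. With the replicate number as a block 8 were lower, Mad1l1 included. All 18 spindle assembly and cytokinesis genes were lower, 7 of them having passed through PBS libraries only. Nusap1, a microtubule bundler, changed by -1.97, and Anln and Racgap1, both of the cleavage furrow, by -1.70 and -1.66.

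Partner and counterpart genes of the transport kinesins were called in both directions. Among 16 cytoplasmic dynein and dynactin genes tested, 4 were higher, 1 lower and 11 not called, with a median change of 0.05, against 18.4% higher and 35.6% lower among all tested genes. With the replicate number as a block 5 were higher, Dynlrb1 included. Actr1a, the filament of dynactin, Dctn3 and Dync1li1 rose by 0.32, 0.23 and 0.17, and Dynlt3 fell by 0.31. Of 8 kinesin light chain and adaptor genes tested, 2 were higher and 3 lower, shares near those of all tested genes. Klc2 rose by 0.43, and Klc4 had a change of -1.18, at 12.6 FPKM with K7M2-EVs and 29.9 FPKM with PBS. Spag9, a scaffold that binds kinesin-1, changed by -0.86. Klc2 and Klc4 thus moved in opposite directions, as did the heavy chain genes of kinesin-1, with Kif5b higher and, in the fit without a filter, Kif5a and Kif5c lower.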

How the data were processed

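RNA of 3 K7M2-EV and 3 PBS cultures was sequenced. Titles gave each library its group and number. The authors deposited FPKM values, 1 table of 26883 rows per library. CASAVA 1.8, HISAT2 2.1.0, StringTie 1.3.4b, edgeR and build GRCm38 are listed in the submitters' processing notes, without the role of each. The headers name no unit. FPKM times the exon length in GENCODE M21 (found for 99.6% of genes) fell within 0.1 of a whole multiple of 1 step per library for 72.3% to 73.2% of values of up to 20 reads, where chance gives 20%. Lengths are of all exons joined, so genes with long, rarely used exons are understated. A row without a value (1) and repeated symbols (47) were dropped.

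log2(FPKM + 1) was fitted with limma 3.58.1 (R 4.3.3, statmod 1.5.0, eBayes with trend and robust settings), without further scaling, for genes reaching 1 FPKM in 3 libraries or more. Python 3.11.15 with pandas 2.3.3 and matplotlib 3.10.9 did the rest. The steps were run on simulated data. That simulation held no difference between replicate numbers, so it does not cover the replicate pattern of these libraries. Genes and lists were chosen with earlier results of these data known. Any of the 72 genes could be named. Values per library were due for up to 5 genes of a role, those of highest mean FPKM, and for Kif11, Kif5b, Cenpa, Cenpb, Mki67 and Top2a, and those of further genes were chosen after their values had been seen. Deviations from the group means correlated between libraries of the same number (0.317, 0.294 and 0.209 across genes), so the numbers appear to pair the libraries, on the evidence of the data, since no label states it. Every printed call comes from the fit without this pairing unless a block is named. P-values set the difference between groups against the spread between these libraries, moderated across genes. Without a block that spread includes differences between replicate numbers. Counting errors cover counting only.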

Additional observations from a re-analysis of the deposited data

How the results depend on the processing

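Calls of the members were recomputed under 26 alternatives, of which 10 were chosen after the data were seen: pseudocount 0.1 without a filter, and left-out libraries with the genes of the full filter. Of 1273 recomputed member values 1230 kept direction and side of the threshold, 12 lost the call, 7 gained it and 24 turned sign, none of the last among called members.

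With a filter applied anew after leaving out libraries, fewer genes are tested. Members called lower then ranged from 21 to 41, against 41 with all libraries, mitotic kinesins from 2 to 10, against 10, and centromere protein genes from 3 to 11, against 11. The lowest of these 3 counts came without both libraries of replicate 2; without 1 PBS library, or both of replicate 1 or 3, 6 mitotic kinesins were called. All genes called ranged from 3469 to 6223, against 7026. With the full filter kept, these became 37 to 41, 10 in every case, 10 to 11, and 4378, without both libraries of replicate 3, to 6616. Spindle regulators ranged from 10 to 13, and from 11 to 13 with the full filter kept, against 13. Transport kinesins stayed at 5 lower and 3 higher in all these.

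The median change of all genes was -0.12 and became -0.0024 after median-of-ratios scaling and 0.00011 after quantile normalization. Lower calls made up 65.9% of all calls, and 49.5% and 51.1% under these scalings, while the members called lower numbered 41 and 39. The replicate block left 41 members lower and brought the higher ones to 4 by adding Kif26b (0.66).

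The values that turned sign were those of genes not called, and left-out libraries gave the same value with either filter. Kif21b changed to 0.119 after median-of-ratios scaling, 0.0763 after quantile normalization, 0.000167 without K7M2-EV replicate 2, 0.0483 without PBS replicate 1, 0.0303 without PBS replicate 3, 0.0462 without both libraries of replicate 1 and 0.0260 without both of replicate 3; its lowest value among left-out libraries was -0.0968. Kif1c became 0.0191 after median-of-ratios scaling, Cenpt 0.0078 after it and 0.123 after quantile normalization, and Cenpj 0.0535 after quantile normalization. Cenpx was -0.0116 without K7M2-EV replicate 1, -0.0206 without K7M2-EV replicate 2, -0.0497 without both libraries of replicate 1, -0.0155 without both of replicate 2 and at most 0.383 otherwise. The causes were not tested.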
